A study of Drosophila melanogaster with 4 samples.

Results

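The Enhancer of split complex, E(spl), and the neighbouring gene groucho (gro) were examined in a Groucho ChIP-seq peak list of Drosophila melanogaster white prepupae, animals at the onset of metamorphosis. The locus was taken as the window from 21815000 to 21880000 on chromosome arm 3R (FlyBase release 5), and its members were the peaks whose centre lay in the window. These were 17 of 11165 peaks in the list and 17 of 2880 on the arm. The window was selected on known values of this list, the score and width of its peaks. All values below therefore describe the list, with no test, and no rank is evidence about the locus.

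The series holds 4 libraries, 2 of Groucho ChIP and 2 of input DNA, all of 1 strain and 1 stage, for which the labels name neither a treatment nor a dissected tissue. The strain, Y cn bw sp, carries y[1], cn[1], bw[1] and sp[1]. It also carries oc[R3.2], CG33964[R4.2] and lab[R4.2], and further Gr22b[1], Gr22d[1], GstD5[1], LysC[1], Rh6[1] and MstProx[1]. The antibody, KW0:GRO, is a rabbit polyclonal serum raised against a Groucho peptide. The deposited result is 1 peak list with a position and a MACS score per peak. It gives no value per library, so replicate error and read depth are both unknown. The authors state no scale for the score, which is used here only to rank and describe peaks within the list.

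Groucho is a co-repressor without a DNA-binding domain of its own. It is carried to chromatin by repressors such as the basic helix-loop-helix (bHLH) proteins of the Hairy and E(spl) family, whose last amino acids form the WRPW tetrapeptide that Groucho binds. The E(spl) genes are classic targets of the Notch pathway. On Notch signalling the DNA-binding protein Suppressor of Hairless activates them, and without the signal the same protein can bring Groucho to its targets through Hairless. The complex thus encodes partners of Groucho, and gro lies at its end.

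By name, all 13 genes listed for the locus were found next to each other in the RefSeq gene table, which is on release 6 of the genome and was used for names and gene order alone. The order begins with 3 bHLH repressors, E(spl)mdelta-HLH, E(spl)mgamma-HLH and E(spl)mbeta-HLH. Next come E(spl)malpha-BFM, of the Bearded family, which antagonises the ubiquitin ligase Neuralized, and Kaz-m1, a protein with a Kazal-type protease inhibitor domain. The Bearded family gene E(spl)m2-BFM is followed by the bHLH gene E(spl)m3-HLH, E(spl)m4-BFM, E(spl)m5-HLH and E(spl)m6-BFM. The last bHLH genes, E(spl)m7-HLH and E(spl)m8-HLH, stand before gro. In all, the complex has 7 bHLH repressors and 4 Bearded family genes, and the interval from E(spl)mdelta-HLH to gro also holds 6 long non-coding RNA genes. The flanking genes are CG43116 and Exo84. The peak list carries no gene names and no annotation of release 5 was used, so the position of the complex in the window was not checked here and no peak was assigned to a gene.

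Groucho peaks in the window were wide and high in score, and lay in 1 chain of peaks less than 5 kb apart. The 17 peaks ran from 21821847 to 21869411, a span of 47.6 kb, of which they covered 63%. No 2 neighbours in the chain were separated by more than 2881 bp, and 53.4% of the gaps between neighbouring peaks of 3R were shorter than that. The window began with a stretch without peaks and ended with another. The gap before the first peak was 12.7 kb and the gap after the last was 11.1 kb, longer than 82% and 79.3% of the 2879 gaps between neighbouring peaks of 3R. The last peak outside the window on the centromere side, at 21808927 to 21809149, scored 11.45. The first on the telomere side, at 21880516 to 21881125, scored 20.23, and its centre lay 820.5 bp beyond the border of the window. The first and last peaks inside, with centres 7779 and 10815 bp from the borders, scored 123.38 and 12.35.

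**Figure D1:**
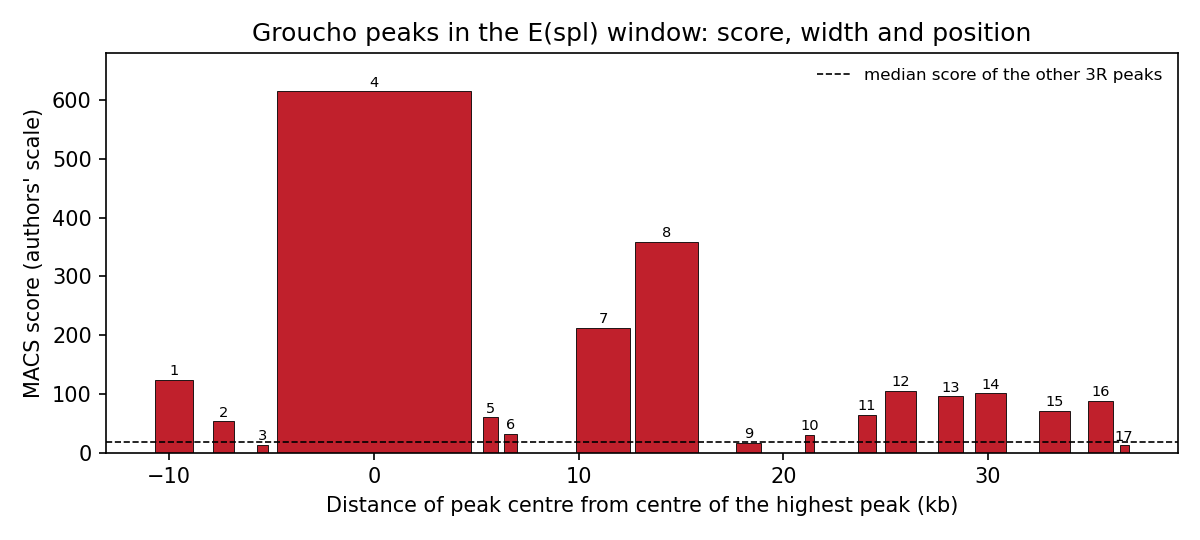
Groucho peaks of the E(spl) window, numbered 1 to 17 from the centromere side. The horizontal axis gives the distance from the centre of the highest peak in kb, the height of a bar the MACS score on the authors' scale and the width of a bar the width of the peak; the dashed line is the median score of the other 3R peaks, 18.01. Peaks 4, 7 and 8 stand above 200, and peaks 11 to 16 form a row between 63.91 and 105.27.

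On the centromere side of the window's midpoint, 8 peaks covered 75.5% of a 26.5 kb span, and their scores ranged from 12.95 to 614.92. Peak 1, at 21821847 to 21823711, scored 123.38 and was 1865 bp wide. Peak 2, at 21824681 to 21825682, scored 53.16, and peak 3, at 21826844 to 21827381, scored 12.95. Scores were lower from 1 to the next along these 3 peaks up to the border of the highest peak.

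Peak 4, at 21827784 to 21837281, was first in the whole list both in score, 614.92, and in width, 9498 bp. The second-highest score of the list was 466.72 and the second-largest width 7615 bp. Peak 4 alone held 31.7% of the bases covered by the 17 peaks. It was separated from peaks 3 and 5 by gaps of 402 and 578 bp. Peaks 5 and 6 on its other side, at 21837860 to 21838602 and at 21838870 to 21839518, were narrower than the median member, 743 and 649 bp wide, and scored 59.77 and 31.82. The longest gap of the chain, 2881 bp, came after them.

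Peaks 7 and 8 formed a close pair, only 231 bp apart. Peak 7, at 21842400 to 21845054, scored 212.3 and ranked 24 on 3R. Peak 8, at 21845286 to 21848383, scored 358.79, which ranked 3 on 3R and 11 in the list. They were 2655 and 3098 bp wide, and peaks 4, 7 and 8 together held 50.9% of the bases covered by the members. These were also the 3 members wider than 2 kb, a width that 2.01% of the peaks of 3R exceeded.

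The telomere side of the window lacked the highest and widest peaks, and its scores had a narrower range. Its 9 peaks covered 51.7% of a 19.2 kb span, with a highest score of 105.27 and a largest width of 1517 bp. The typical peaks of the sides differed less, with median scores of 91.575 on the centromere side and 71.56 on the telomere side. The median widths were 1433.5 and 1218 bp in the same order. The telomere side began with a pair of sites that scored below the median of the members and were set apart by longer gaps. Peak 9, at 21850236 to 21851449, scored 16.25 over a width of 1214 bp, and peak 10, at 21853599 to 21854021, scored 29.83 over 423 bp, the narrowest of all members. The gaps around them were 1852, 2149 and 2182 bp.

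Peaks 11 to 16 followed as a row of similar sites. Their scores were 63.91 for peak 11 (21856204 to 21857058), 105.27 for peak 12 (21857524 to 21859025) and 95.91 for peak 13 (21860076 to 21861327). The scores were 100.56 for peak 14 (21861920 to 21863402), 71.56 for peak 15 (21865040 to 21866556) and 87.47 for peak 16 (21867423 to 21868640). Widths in this row ran from 855 to 1517 bp and the distances between neighbouring centres from 1643.5 to 3137 bp. A run of 6 neighbouring peaks that all scored above 35.02, the upper quartile of the other 3R peaks, occurred once more on the arm in a longer form, with 7 peaks over 24.2 kb at 20397433 to 20421608. The run of the window spanned 12.4 kb and its longest gap was 1637 bp, against 8938 bp in the other. Of the 510 runs on 3R, 361 were single peaks. The chain ended with peak 17, at 21868959 to 21869411, which scored 12.35 and was 453 bp wide.

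Over all 17 members scores had a median of 71.56 and quartiles of 31.82 and 105.27, whereas the other 2863 peaks of 3R had a median of 18.01 and quartiles of 12.185 and 35.02. The median width was 1218 bp in the window and 455 bp elsewhere on the arm. Scores above 100 were held by 6 of the 17 members (peaks 1, 4, 7, 8, 12 and 14), and by 5.97% of the peaks of 3R. In 12 members the score, and in 13 the width, exceeded the upper quartile of the other peaks of the arm, against 25.1% and 25.3% of all peaks of 3R. Not all sites of the locus were strong. Peaks 3, 9 and 17 scored below the arm's median of 18.01, and peaks 10 and 17 were narrower than its median width. These shares use the same values that drew attention to the window and support nothing further.

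Score followed width within the window, as it did on the rest of the arm. Spearman's rho was 0.919 over the 17 members, 0.903 without peak 4 and 0.777 over the other 2863 peaks of 3R, and the points share the libraries and the caller. Each member was therefore set beside the 200 peaks of the list nearest to it in width. The median of 17 such comparisons was a score above 72% of the peaks of like width, and 13 members scored above more than 50% of theirs. Peak 8 scored above 99% of peaks between 2150 and 3929 bp wide, whose median was 124.81. It ranked 65 in width in the list, so most of its 200 were narrower than peak 8 and the match is uneven. Peak 4 scored above 100% of its 200, but these were only 2219 to 7615 bp wide, so for it no peaks of like width existed. The row of peaks 11 to 16 lay between 47% and 73.5%. Peak 9 was at the other extreme, since its score of 16.25 exceeded 1% of peaks of like width, whose median was 52.89.

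**Figure D2:**
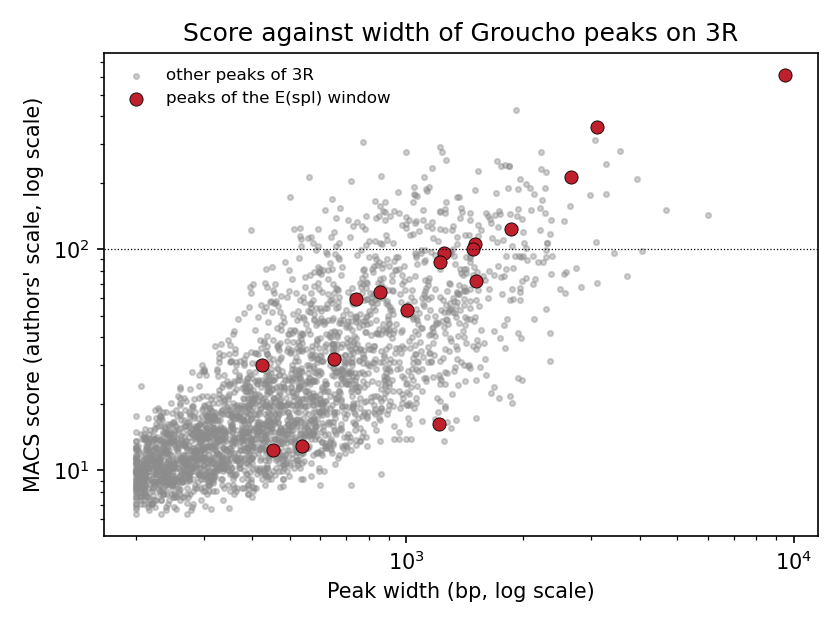
MACS score (authors' scale, log axis) against peak width (bp, log axis) for the 17 peaks of the E(spl) window in red and the other 2863 peaks of 3R in grey; the dotted line marks a score of 100. Most red points follow the grey cloud towards its wide, high end, with the 9498 bp peak beyond it, and 1 point of 1214 bp lies at the low edge with a score of 16.25.

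The distances between centres held neither the shortest nor the longest values of the arm. Distances between neighbouring centres had a median of 2624 bp and ranged from 963 to 5698.5 bp, against a median of 3063.5 bp on the rest of 3R, where the upper quartile was 9471.25 bp. The gaps between edges, which also depend on width, had a median of 917.5 bp in the window and 2411 bp elsewhere. Within 10 kb of a member lay 3 to 8 other peaks, with a median of 5, and 14 of the 17 members had at least 4, a number reached by 50.5% of the peaks of 3R.

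**Figure D3:**
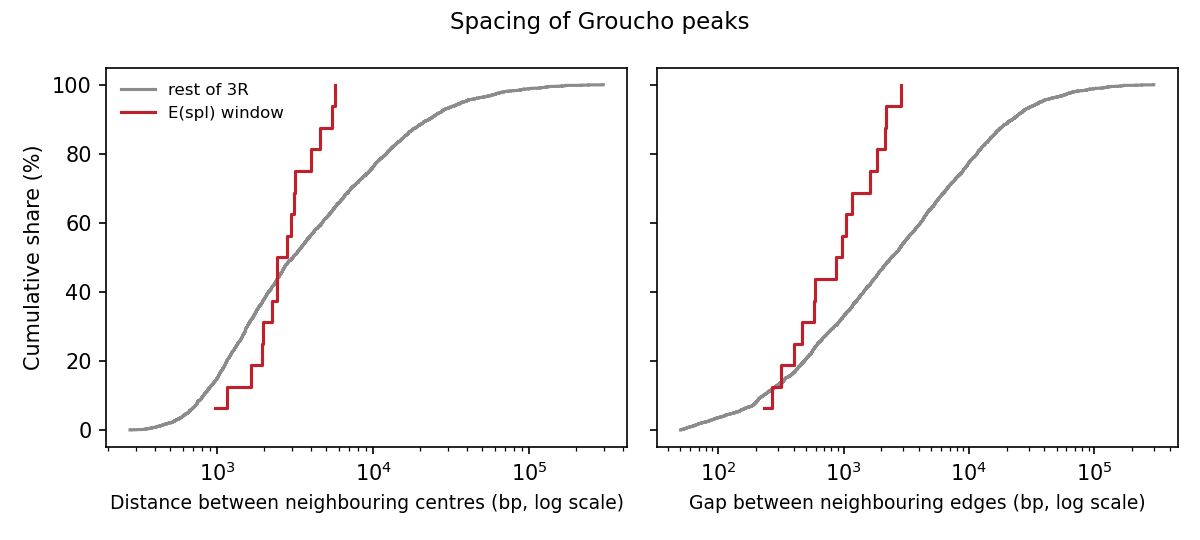
Cumulative share (%) of the distances between neighbouring centres (left) and of the gaps between neighbouring edges (right), in bp on log axes, for the 16 neighbour pairs of the E(spl) window in red and the rest of 3R in grey. The red curve for centres lacks both the shortest and the longest distances and crosses the grey one near its middle, whereas the red curve for gaps lies to the left of the grey one over most of its range, with medians of 917.5 and 2411 bp.

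In tiles laid from the borders of the window, the locus ranked higher in covered length than in number of sites. The arm was cut into 428 tiles of 65001 bp, the length of the window, laid end to end from its borders. With 17 peaks the window ranked 24, tied with 3 other tiles, where the other tiles had a median of 6 and a highest number of 28. By covered share it ranked 1, with 46.1%, against a median of 4.61% and a next value of 33.8%. That rank was 2 without the highest peak, at a share of 31.5%, and also 2 with tiles counted from base 1. The window also ranked 1 in the number of peaks above 100, with 6 against at most 4 in the other tiles. In 74.1% of tiles there were 0 such peaks, counting the 51 tiles without any peak. Among the 246 tiles with at least 5 peaks, the window ranked 1 in median width and in median score, and the next values were 1054 bp and 59.77. Both first places depend on that limit, since some tiles with fewer peaks had higher medians. The tile at 5239745 to 5304745, with 3 peaks, had a median score of 188.35. The tile at 3874724 to 3939724, with 4 peaks, had a median width of 1334.5 bp. The median distance between centres in the window ranked 130 of 246 from the shortest, with 2572.5 bp as the median of the others.

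The tiles with the most peaks were built of narrower and lower-scoring sites. The tile at 884678 to 949678 held 28 peaks with a median width of 619.5 bp and a median score of 18.45, and they covered 30.1%. The tile at 17394932 to 17459932 held 26 peaks, which covered 26.9%, with a median score of 34.325. The tiles at 10179821 to 10244821, 22985018 to 23050018 and 9724814 to 9789814 held 25, 24 and 23 peaks and covered 33.8%, 26.7% and 25.6%. Each of these 5 tiles had more peaks than the E(spl) window and 2 or fewer wider than 2 kb. The next tiles by covered share, besides the first and the third of these, were 25585058 to 25650058 (30.9%), 11999849 to 12064849 (29.2%) and 12064850 to 12129850 (27.7%).

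**Figure D4:**
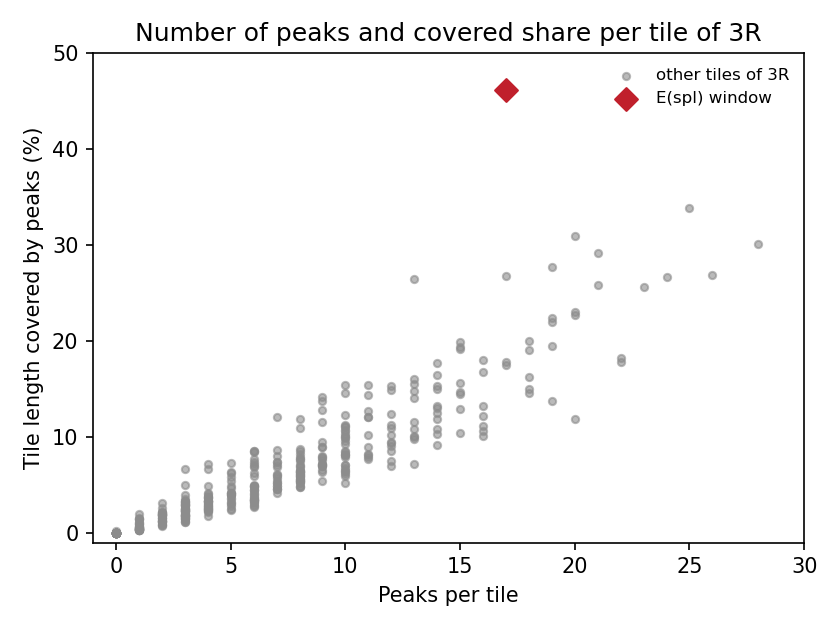
Share of the tile length covered by Groucho peaks (%) against the number of peaks per tile, for 428 tiles of 65001 bp on 3R; the red diamond is the E(spl) window and grey points are the other tiles. The window, with 17 peaks and 46.1%, lies above the other tiles, which reach 28 peaks and 33.8%.

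The first places in covered share and in number of peaks above 100 depend on where the tiles begin. When windows of the same length were moved along the arm in steps of 1 kb, a stretch at 12028001 to 12093001 reached 50.4%, above the 46.1% of the E(spl) window and the 47.9% of the best placed window that holds its peaks. That stretch straddles 2 tiles and held 6 peaks above 100, as many as the E(spl) window. Over the 6 main arms, 5 other loci passed 46.1% in this way, 1 of them on 3R, and the largest share, 58.4%, was on 2R at 14180001 to 14245001. These 5 held 29 to 38 peaks with median widths of 543 to 989 bp and median scores of 17.66 to 42.25. In all 5 loci the medians were below the 1218 bp and 71.56 of the E(spl) window. Their shares of 48% to 58.4% were spread over more peaks. Several of these loci matched or passed the window's 6 peaks above 100 or its 3 peaks wider than 2 kb. The 2R stretch had 8 above 100 and 6 wider than 2 kb, and the 3L stretch at 8646001 to 8711001 had 8 and 5. The 3L stretch at 723001 to 788001 had 2 above 100 and 4 wider than 2 kb, the 3R stretch had 6 and 2, and the 2L stretch at 14498001 to 14563001 had 4 and 1.

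The chain of the locus can also be set beside other chains of peaks less than 5 kb apart. On 3R there were 36 chains of at least 10 peaks, and that of the E(spl) window ranked 6 in peak number, 3 in length and 2 in covered share, behind a chain with 68.4%. The median covered share of the 36 was 40.2%. Over the main arms, it ranked 26, 12 and 3 of 132 chains.

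The caller's division into peaks sets these numbers. With peaks less than 1 kb apart joined, the locus had 8 regions in place of 17. The largest, at 21826844 to 21839518, joined peaks 3 to 6 and was 12.7 kb wide. Peaks 7 and 8 became 1 region of 5.98 kb at 21842400 to 21848383, and the row of peaks 11 to 17 became 3 regions of 2.82, 3.33 and 4.37 kb. Peaks 9 and 10 stayed single.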

How the data were processed

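The deposited file is 1 peak list for 2 Groucho ChIP and 2 input libraries, grouped by their titles. Per the file headers, positions are 1-based on FlyBase release 5 and the caller is MACS. The submitters' processing notes name MACS2, BWA, the build BDGP5 and CASAVA in versions 1.7.0.2 and 1.7.0.3. Peak threshold and pooling of libraries are not stated there. The score is the authors' deposited value, with no stated scale.

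The window, the 13 genes and the measures were chosen with earlier results of these data known. All 17 peaks were described, as the rule for named sites demanded, together with the 5 tiles of most peaks and the 5 others of largest covered share. Arm length was the end of the last peak. Incomplete tiles at arm ends were left out. Medians were ranked in tiles with at least 5 peaks. The runs, the split at the midpoint of the window, the comparison at like width and the loci above 46.1% were added after the values were seen. Promoter and protein sequences, planned with their motifs, were not analysed here. Calculations used Python 3.11.15, numpy 2.4.6, pandas 2.3.3, scipy 1.17.1 and statsmodels 0.14.6, with plots by matplotlib 3.10.9. Window, rank and joining steps were tested on simulated lists. Alternatives covered score, joining, overlap, borders, tile position, arms and the highest peak.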

Additional observations from a re-analysis of the deposited data

How the results depend on the processing

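Of 63 alternative values over 9 settings, 45 stayed close to the reported ones and 18 moved. Close meant within 1.5 times for counts, medians and ranks, and within a 95% Wilson interval over bases for the covered share. That interval treats neighbouring bases as independent, so it is narrow and no measure of error. A share of 42.7% against 46.1% thus counted as moved. Membership by overlap and borders 5 kb further in kept the same 17 peaks, so their number and medians could not move. The tally is therefore no measure of robustness. With peaks less than 1 kb apart joined, the number of peaks was 8, the covered share 53.3%, the median width 3581.5 bp, the median distance 5451 bp and the rank by peak number 49. With the 50% of peaks of highest score, the covered share was 42.7% and the rank by number 4. Borders 5 kb further in gave a covered share of 54.5% and rank 2 by it, and borders 5 kb further out gave 41.5%. Without the highest peak the covered share was 31.5%, and the window ranked 2 by covered share and 2 by highest score. In the set of 27701 overlapping windows placed every 1 kb, shifted windows that overlap the E(spl) window were left out. The windows ahead by covered share all belonged to 1 locus, around 12028001 to 12093001. In this set the E(spl) window ranked 1457 by number and 23 by covered share, and among 1832 tiles of all 6 main arms 79 and 3. With tiles counted from base 1 it ranked 2 by covered share. Borders 5 kb further in kept the same 17 peaks in a shorter window, which by itself raises the covered share. The cause of the other moves was not tested, beyond what each setting removes, joins or adds. No paired analysis was possible because the list holds no value per library, and no replicate could be left out for the same reason. With depth unknown, absence of a called peak does not show absence of Groucho.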
